A study of Mus musculus with 8 samples.

Results

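Chemokine receptors were examined in tumor-associated macrophages (TAMs), as the 9 genes Ccr1, Ccr2, Ccr3, Ccr7, Ccrl2, Cxcr3, Cxcr4, Cxcr6 and Ackr3. They were taken by gene symbol from a table of 53247 genes, and all 9 were found. The table holds RNA-Seq values of 4 WT and 4 miR-21-/- samples. The sort gate took cells positive for CD45, CD11b, MHC II and F4/80, and the tumors were s.c. grafts of LLC, the Lewis lung carcinoma line of the mouse. The mice were on a C57BL/6 background. They received the tumor cells at 8 weeks of age and were sampled 14 days later, at 10 weeks. The miR-21-/- mice carry a germline deletion of the microRNA in every cell, so that the host cells around the TAMs lacked it too, while the implanted LLC cells were the same for both genotypes. miR-21-/- sample 1 carries a joined pair of numbers in its title, which may stand for a pool, and was counted as 1 sample. The labels do not state that each sample is a different mouse, and p-values therefore measure the spread between these samples. A value with ± is the mean and SD over the 4 samples of a genotype.

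Chemokine receptors are G protein-coupled receptors that steer leukocytes along gradients of small secreted chemokines. CC receptors bind CC chemokines and CXC receptors bind CXC chemokines, and most signal through inhibitory G proteins to actin and adhesion. Atypical receptors such as Ackr3 and Ccrl2 bind their ligands without this signal and scavenge or present them. In tumors, Ccr2 is known for recruiting blood monocytes, Ccr1 for recruiting monocytes and neutrophils, and Cxcr4 for holding myeloid cells near its ligand Cxcl12.

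The mature strand of the deleted microRNA is shown first because its seed, bases 2 to 8, in capitals, sets which mRNAs it can pair with. It lies on the minus strand of GRCm38.p6 at chr11:86584120-86584141, and the sequence is that of RefSeq.
miR-21a-5p: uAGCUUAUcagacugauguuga
The longest annotated 3′ untranslated region (3′ UTR) of each receptor was searched for matches to this seed. A single match was found, in Cxcr6, the receptor of Cxcl16 on activated T cells. It has 7 bases, in capitals, starts at base 563 of a 3′ UTR of 769 bases, and is shown on the plus strand of GRCm38 at chr9:123811542-123811566.
Cxcr6 site: aggccagaataaATAAGCTgaattt
The other 8 receptors had no match of 6 or more bases in 3′ UTRs of 416 to 2701 bases. Among the 11449 tested genes whose 3′ UTR is annotated, 12.4% had a match of 7 or 8 bases and 26.6% one of 6, 7 or 8 bases. A match is a description of letters and does not show that the microRNA binds there.

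The depth, taken from the size of the smallest step between values, ranged from 20.2 to 33.3, in 1e+06 reads. Values are counts per 1e+06 reads (CPM), and at this depth a single read equals up to 0.0495 CPM. Read numbers of a gene given below are estimates, its CPM divided by the value of a read. Mir21a was listed at 0.0001 CPM in all 8 samples, the value added to every entry, and cannot check the genotype. Its host gene Vmp1 was at 115 to 133 CPM in the WT and at 373 to 426 CPM in the miR-21-/- samples. The macrophage markers summed to 13253 to 16145 CPM in WT and to 14725 to 17554 CPM in miR-21-/- TAMs, with Lyz2 the highest in both. The genotypes did not overlap in 3 of these 10 markers. Fcgr1 was higher in miR-21-/- TAMs (273 ± 35.4 CPM in WT, 458 ± 45.8 CPM in miR-21-/-, adjusted p = 0.000561 by limma). Adgre1 was lower (564 ± 19.4 and 433 ± 27.5 CPM, adjusted p = 0.00140), as was Csf1r (1311 ± 160 and 939 ± 79.1 CPM, adjusted p = 0.00538). No other macrophage marker had an adjusted p at or under 0.05. Markers of B cells (highest Cd79b), plasmacytoid dendritic cells (Bst2) and LLC or epithelial cells (Krt8) each summed to at most 48.4 CPM in any sample. Of the 13850 genes that passed a filter on low values, a mean of 1 per 1e+06 of the column totals, 7.12% passed the threshold, an adjusted p at or under 0.005 and a change of over 1.5-fold on the log2(CPM + 1) scale. That share was 2.89% for higher and 4.23% for lower values in miR-21-/- TAMs. At an adjusted p at or under 0.05 with no fold limit, 36.0% passed, and in 35.1% the WT and miR-21-/- samples did not overlap. Of the calls, 40.6% were higher in miR-21-/- TAMs, which became 59.3% after quantile normalization and 59.8% after scaling by the median of ratios.

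Cxcr4 fell 1.96-fold and Ccr3 3.16-fold in miR-21-/- TAMs, and no receptor rose past the threshold. All 9 receptors passed the filter. By limma, 2 of the 9 passed the threshold, against 7.12% of all tested genes. At an adjusted p of 0.05, 6 of the 9 passed, 3 with higher and 3 with lower values, against 36.0% of all tested genes. These became 5 of 9 after the median of ratios, without Cxcr3, and 4 of 9 after quantile normalization, without Cxcr3 and Ccr1. With 1 sample left out, 3 to 5 of the 9 remained at or under 0.05, with 3, Ccr3, Ccrl2 and Cxcr4, without WT replicate 3. The median log2 fold change of the 9 was -0.28, and that of all tested genes was -0.10. The genotypes did not overlap in 4 of the 9, Ccr3, Cxcr4, Ccrl2 and Cxcr6, close to the 35.1% of all tested genes. In these sorted populations, fewer cells that carry a receptor and less of its mRNA per cell cannot be told apart.

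**Figure D1:**
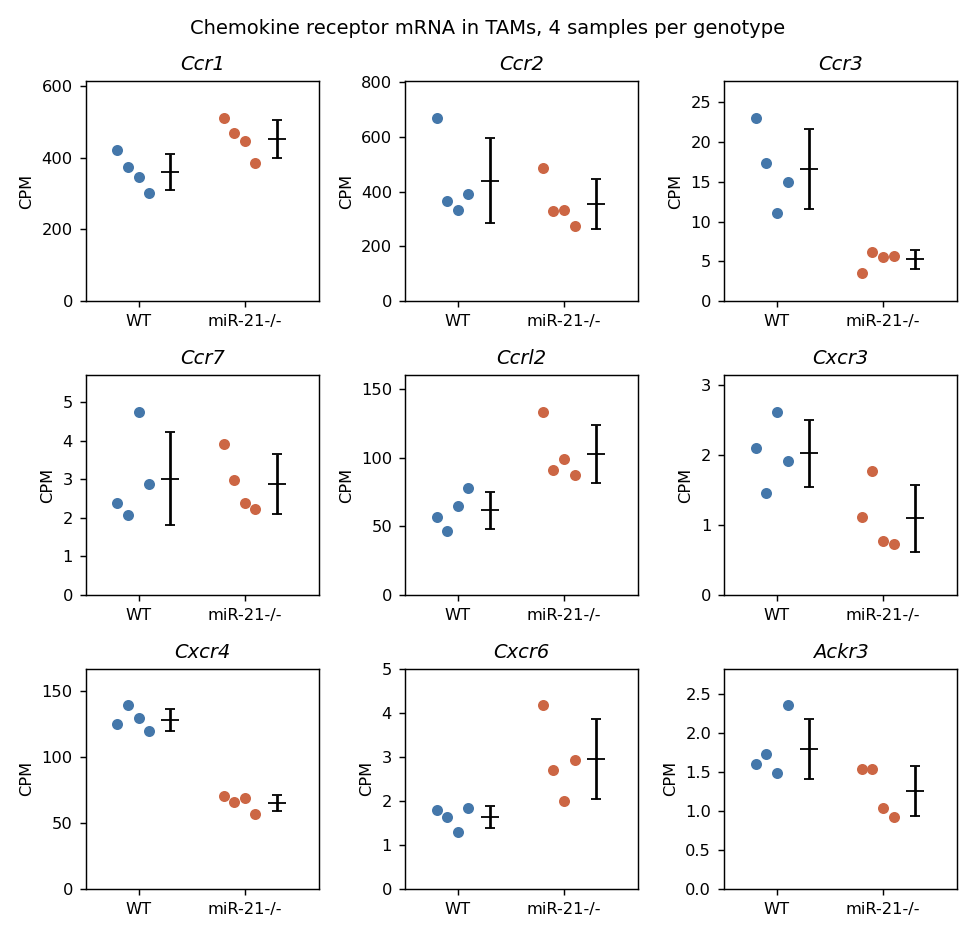
CPM of each receptor (y axis, from 0) in the 4 WT and 4 miR-21-/- samples (points), with the mean and SD beside each group (bar). Cxcr4 and Ccr3 are lower and Ccrl2 and Cxcr6 higher in every miR-21-/- sample than in any WT sample, while the points of the other 5 receptors overlap.

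Cxcr4, the receptor of Cxcl12, was at 125, 139, 130 and 119 CPM in WT samples 1 to 4. It was at 70.2, 65.7, 69.0 and 56.9 CPM in miR-21-/- samples 1 to 4. The lowest WT sample was well above the highest miR-21-/- sample, and the samples of a genotype lay close together, with a coefficient of variation of 6.51% in WT and 9.21% in miR-21-/- TAMs. The means were 128 ± 8.35 and 65.4 ± 6.03 CPM, a 1.96-fold decrease. By limma the log2 fold change was -0.96 (SE 0.075, 95% interval -1.13 to -0.80, adjusted p = 2.39e-05). Between about 1718 and 4017 reads per sample lay behind these values. Cxcr4 lies on chromosome 1 of GRCm38, 128588199 to 128592293, on the minus strand.

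Ccr3, the eotaxin receptor known from eosinophils and basophils, was at 23.0, 17.3, 11.1 and 15.0 CPM in WT samples 1 to 4. It was at 3.55, 6.24, 5.49 and 5.72 CPM in miR-21-/- samples 1 to 4. Every WT sample was above every miR-21-/- sample, with a wider spread than for Cxcr4. The means were 16.6 ± 4.99 and 5.25 ± 1.18 CPM, a 3.16-fold decrease in CPM. The log2 fold change was -1.47 (SE 0.21, 95% interval -1.93 to -1.01, adjusted p = 0.000657 by limma). When genes of low values were kept in the fit, its adjusted p became 0.00572, past the limit of 0.005. Ccr3 lies on chromosome 9, 124021972 to 124031689, on the plus strand.

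Markers of eosinophils and basophils were measured beside Ccr3, since these cells are known to carry it. Epx and Prg3, granule proteins that define eosinophils, were at 0.0001 CPM in all 8 samples, and 4 of the 8 markers listed were at or under 3 reads in every sample. The 8 markers summed to 2.95 to 3.71 CPM in WT and to 0.769 to 1.89 CPM in miR-21-/- TAMs. Siglecf and Cpa3 made up 94.0% to 97.9% of this sum in the WT and 78.3% to 95.2% in the miR-21-/- samples. Siglecf, a lectin also found on some macrophages, averaged 1.82 ± 0.329 CPM (WT) and 0.658 ± 0.257 CPM (miR-21-/-) and passed the threshold. Cpa3, a protease of mast cells and basophils, averaged 1.35 ± 0.240 and 0.587 ± 0.325 CPM (adjusted p = 0.0150 by limma). The miR-21-/- means of both were under the filter, so that both were tested only through the WT samples, where they are high. The part of eosinophils and basophils in the values of Ccr3 was not tested.

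The 250 bases before the RefSeq start of Ccr3 and Cxcr4 are shown because these were the receptors that fell together, on GRCm38.p6 and in the direction of transcription. The CCAAT box (CCAAT, searched on both strands) is in capitals.
Ccr3, chr9:124021721-124021970, plus strand: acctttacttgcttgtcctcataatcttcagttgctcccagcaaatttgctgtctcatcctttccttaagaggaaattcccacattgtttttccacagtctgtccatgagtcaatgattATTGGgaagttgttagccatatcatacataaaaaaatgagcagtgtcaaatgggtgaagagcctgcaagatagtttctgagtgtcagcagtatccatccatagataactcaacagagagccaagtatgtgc
Cxcr4, chr1:128592300-128592549, minus strand: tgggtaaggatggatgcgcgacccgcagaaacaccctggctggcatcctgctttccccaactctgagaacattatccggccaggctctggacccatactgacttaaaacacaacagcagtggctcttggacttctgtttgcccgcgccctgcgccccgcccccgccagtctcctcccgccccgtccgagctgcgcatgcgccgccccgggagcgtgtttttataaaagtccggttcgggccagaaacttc
CCAAT was found in the windows of Ccr3, Ccrl2 and Ackr3, 3 of the 8 receptors in the promoter table, and in 37.5% of 27025 genes. The gamma-activated site (TTCNNNGAA) was in none of the 8 and in 8.13% of genes. The hypoxia response element core (ACGTG) was in the window of Ccrl2 and in 18.5% of genes. A PU.1 site (GAGGAAGT) was in that of Cxcr3 and in 2.79% of genes. The absence of these letters from a window says nothing of the factor.

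**Figure D2:**
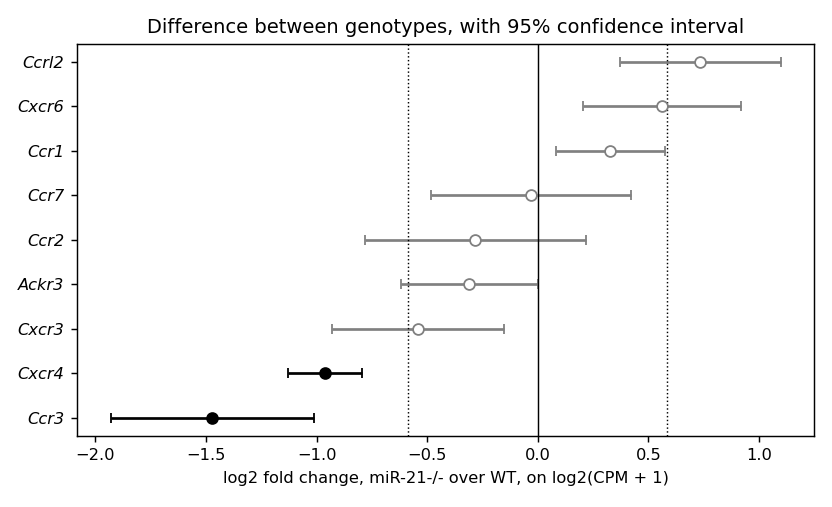
Log2 fold change of each receptor, miR-21-/- over WT, on log2(CPM + 1) (x axis), with its 95% confidence interval from limma (bar). Filled points passed the threshold, and dotted lines mark a change of 1.5-fold. The intervals of Ccr3 and Cxcr4 lie beyond the line, and those of Ccr2, Ccr7 and Ackr3 include 0.

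Ccrl2, an atypical receptor that binds chemerin and presents it to other cells, was at 57.0, 46.5, 64.8 and 78.1 CPM in WT samples 1 to 4. It was at 133, 91.3, 99.0 and 87.4 CPM in miR-21-/- samples 1 to 4. Every miR-21-/- sample was above every WT sample, and miR-21-/- sample 1 was the highest. The means were 61.6 ± 13.3 and 103 ± 21.0 CPM, a ratio of 1.67. Ccrl2 had a log2 fold change of 0.73 (SE 0.16, 95% interval 0.37 to 1.10, adjusted p = 0.00694 by limma), just short of the limit of 0.005. Without WT replicate 4, the highest WT sample, the log2 fold change was 0.85 and the adjusted p was 0.00267. The gene is on chromosome 9, 111054486 to 111057519, on the minus strand.

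Cxcr6 was at 1.81, 1.63, 1.29 and 1.83 CPM in WT samples 1 to 4. It was at 4.18, 2.70, 2.00 and 2.94 CPM in miR-21-/- samples 1 to 4. The genotypes did not overlap, although the lowest miR-21-/- sample was only slightly above the highest WT sample. Between about 26 and 112 reads per sample lay behind these values. Its log2 fold change was 0.56 (SE 0.16, 95% interval 0.20 to 0.92, adjusted p = 0.0216 by limma), which did not pass the threshold. It was the receptor with the seed match shown above. The gene, on chromosome 9 at 123806475 to 123811760 on the plus strand, lies within the span of Fyco1 on the other strand and shares 0 exon bases with it.

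Cxcr3, the receptor of the interferon-induced ligands Cxcl9, Cxcl10 and Cxcl11 and best known from effector T cells, was at 2.11, 1.45, 2.62 and 1.91 CPM in WT samples 1 to 4. It was at 1.12, 1.77, 0.768 and 0.728 CPM in miR-21-/- samples 1 to 4. The genotypes overlapped, since miR-21-/- sample 2 was above WT sample 2. Its log2 fold change was -0.54 (SE 0.17, 95% interval -0.93 to -0.15, adjusted p = 0.0351 by limma). About 20 to 63 reads per sample lay behind Cxcr3, and about 27 to 59 behind Ackr3. It is on chromosome X, 101731535 to 101734269, on the minus strand.

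T cell markers were measured beside these lymphocyte receptors. The 10 markers summed to 23.9 to 44.0 CPM in WT and to 11.2 to 49.1 CPM in miR-21-/- TAMs, and none was at 0 in all samples. At an adjusted p of 0.05, 1 of the 10 was higher, Cd8a, and 1 lower, Cd4, against 36.0% of all tested genes in either direction. The log2 fold changes of Cd3d, Cd3e, Cd3g and Cd247, subunits of the T cell receptor complex, lay between 0.0019 and 0.29. Cd8a, the co-receptor of cytotoxic T cells, was at 2.01, 1.32, 2.18 and 2.19 CPM in WT samples 1 to 4 and at 11.6, 6.04, 2.80 and 6.35 CPM in miR-21-/- samples 1 to 4 (adjusted p = 0.00804 by limma). Its highest and lowest miR-21-/- samples were the same samples as for Cxcr6. Without miR-21-/- replicate 1 the log2 fold change of Cxcr6 was 0.42 (adjusted p = 0.0421) and that of Cxcr3 was -0.56 (adjusted p = 0.0592). Cd4, which mouse macrophages can also express, averaged 16.6 ± 10.0 CPM (WT) and 2.19 ± 1.15 CPM (miR-21-/-) and passed the threshold. The NK cell markers summed to 3.56 to 11.2 CPM in WT and to 7.14 to 18.9 CPM in miR-21-/- TAMs, with Prf1 the highest. The part of these cells in the values of Cxcr6 and Cxcr3 was not tested.

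Ccr1, the receptor of Ccl3, Ccl5, Ccl6 and Ccl9, had the highest level per kb of exon in both genotypes. It was at 422, 373, 347 and 302 CPM in WT samples 1 to 4 and at 511, 468, 445 and 385 CPM in miR-21-/- samples 1 to 4. The genotypes overlapped. Ccr1 had a log2 fold change of 0.33 (SE 0.11, 95% interval 0.080 to 0.57, adjusted p = 0.0428 by limma), and the adjusted p lay between 0.0187 and 0.104 when each sample was left out in turn. The gene is on chromosome 9, 123962124 to 123968692, on the minus strand.

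Ccr2, the receptor of Ccl2, Ccl7 and Ccl12 on inflammatory monocytes, was at 669, 366, 333 and 392 CPM in WT samples 1 to 4. It was at 486, 328, 334 and 274 CPM in miR-21-/- samples 1 to 4. The genotypes overlapped, and WT sample 1 was far above the other WT samples. The log2 fold change was -0.28 (SE 0.22, 95% interval -0.78 to 0.22, adjusted p = 0.351 by limma). Without WT replicate 1 it was -0.062 (adjusted p = 0.799). A decrease of over 1.5-fold is within the interval, so that the data do not show equal levels. The gene is on chromosome 9, 124101950 to 124113557, on the plus strand, and 1.91% of its words of 50 bases occur in other genes, against 0 for the other 8 receptors.

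Markers of monocytes, the cells in which Ccr2 is highest, were compared in the same samples. The 7 monocyte markers summed to 599 to 1139 CPM in WT and to 594 to 998 CPM in miR-21-/- TAMs, with F13a1 the highest. None of the 7 passed the threshold and 2 of the 7 had an adjusted p at or under 0.05, Plac8 and Hp, both with lower values in miR-21-/- TAMs, against 26.5% of all tested genes. Within a library, the ratio of Ccr1 to Ccr2 does not depend on scaling. In WT samples 1 to 4 this ratio was 0.630, 1.02, 1.04 and 0.771. In miR-21-/- samples 1 to 4 it was 1.05, 1.43, 1.33 and 1.41. The lowest miR-21-/- ratio was just above the highest WT ratio. This ratio was chosen after its values were seen and was not tested.

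Ccr7, which guides mature dendritic cells to lymph nodes, was at 2.37, 2.08, 4.75 and 2.87 CPM in WT samples 1 to 4. It was at 3.92, 2.97, 2.38 and 2.22 CPM in miR-21-/- samples 1 to 4. The genotypes overlapped. Ccr7 had a log2 fold change of -0.031 (SE 0.20, 95% interval -0.48 to 0.42, adjusted p = 0.919 by limma), and its sign changed with the scaling, with positive values after quantile normalization and after the median of ratios. Of 9 markers of mature dendritic cells, 6 were highest among the WT samples in sample 3, where Ccr7 was also highest, among them Ccl22, Fscn1 and, at or under 3 reads in all samples, Ccl17. Ccl22 was at 4.11 CPM there and at 0.996 to 1.74 CPM in the other WT samples, and Fscn1 was at 22.5 CPM. The sum of the 9 markers was instead highest in WT sample 2, where Ccr7 was lowest of the WT samples, at 72.7 CPM against 54.4 CPM in WT sample 3, and Apol7c held 43.5 CPM of it. The sum lay between 38.7 and 72.7 CPM in WT and between 32.8 and 45.8 CPM in miR-21-/- TAMs, and the part of these cells in Ccr7 was not tested. Ccr7 lies on chromosome 11, 99144196 to 99155077, on the minus strand.

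Ackr3, an atypical receptor that scavenges Cxcl12 and Cxcl11, was at 1.60, 1.73, 1.48 and 2.35 CPM in WT samples 1 to 4. It was at 1.53, 1.53, 1.04 and 0.926 CPM in miR-21-/- samples 1 to 4. The genotypes overlapped. Ackr3 had a log2 fold change of -0.31 (SE 0.14, 95% interval -0.62 to 0.00041, adjusted p = 0.108 by limma). Its position is chromosome 1, 90203980 to 90216751, on the plus strand. Markers of fibroblasts, which are known to express Ackr3 and Cxcl12, summed to 67.0 to 143 CPM in WT and to 11.6 to 45.9 CPM in miR-21-/- TAMs, with Col3a1 the highest. Of the 6 fibroblast markers tested, 4 passed the threshold, all lower in miR-21-/- TAMs, against 4.23% of all tested genes. The endothelial markers summed to 153 to 305 CPM in WT and to 203 to 292 CPM in miR-21-/- TAMs, with Pecam1 the highest, and none of the 4 tested had an adjusted p at or under 0.05, against 36.0% of all tested genes. The part of stromal cells in Ackr3 was not tested.

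To compare the receptors with each other, CPM was divided by the length of all annotated exons of a gene in kb. In WT TAMs the level per kb ran in the order Ccr1 (127), Cxcr4 (71.0), Ccr2 (65.1), Ccrl2 (23.7), Ccr3 (5.07), Ccr7 (1.53), Cxcr3 (1.17), Cxcr6 (0.848) and Ackr3 (0.535). The top 4 receptors were thus apart from the other 5. Among neighbors in this order, the samples of Cxcr4 and Ccr2 overlapped, as did those of Ccr7 and Cxcr3, of Cxcr3 and Cxcr6, and of Cxcr6 and Ackr3. The samples did not overlap between Ccr1 and Cxcr4, Ccr2 and Ccrl2, Ccrl2 and Ccr3, and Ccr3 and Ccr7. All these levels come from the same 4 libraries, and an exact test of 4 pairs cannot go below p = 0.125, so the order is a description with no test. The order was the same without any 1 of the 4 WT samples, and Cxcr4 and Ccr2 changed places when the longest transcript was used as the length. With that length Ccr1 still had the highest mean in WT TAMs, but its samples (107 to 149 per kb) overlapped those of Ccr2 (58.0 to 117 per kb).

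In miR-21-/- TAMs the order per kb was Ccr1 (160), Ccr2 (52.6), Ccrl2 (39.6), Cxcr4 (36.2), Ccr3 (1.60), Cxcr6 (1.53), Ccr7 (1.45), Cxcr3 (0.633) and Ackr3 (0.375). Cxcr4 was thus in the fourth place instead of the second. Its samples overlapped those of Ccrl2. The top 4 places and the lowest 2 were the same when any 1 of the 4 miR-21-/- samples was left out, while Ccr3, Cxcr6 and Ccr7 changed places among themselves without sample 2, 3 or 4. Ccr3, Cxcr6 and Ccr7 overlapped each other in miR-21-/- TAMs, whereas every WT sample of Ccr3 was above every WT sample of Ccr7. Within a library, the ratio of Ccrl2 to Cxcr4 in CPM was 0.456, 0.334, 0.499 and 0.654 for WT samples 1 to 4. For miR-21-/- samples 1 to 4 it was 1.90, 1.39, 1.43 and 1.54. Ccrl2 thus had more reads than Cxcr4 in each miR-21-/- sample and fewer in each WT sample, a ratio chosen after its values were seen.

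**Figure D3:**
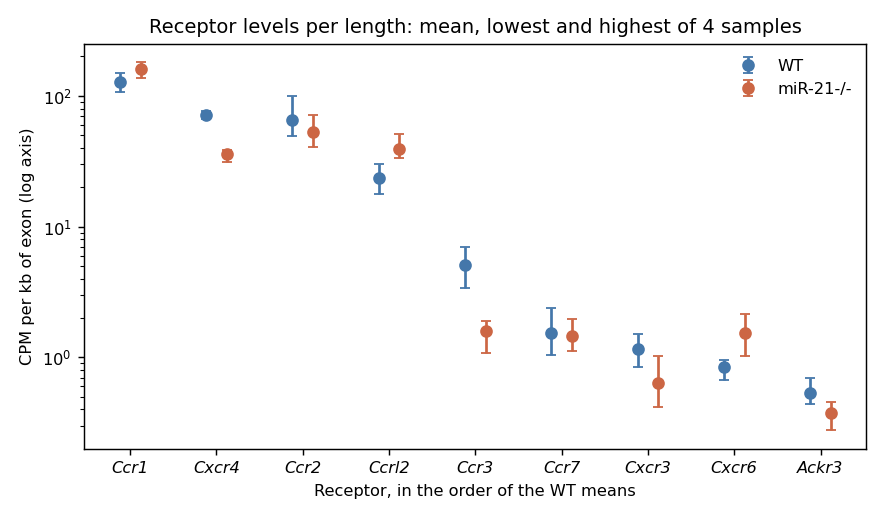
CPM per kb of exon (y axis, log scale) of each receptor in WT and miR-21-/- TAMs, as the mean (point) with the lowest and highest of 4 samples (bar), in the order of the WT means. Ccr1 leads in both genotypes, and the bars of Cxcr4 and Ccr3 are lower in miR-21-/- TAMs and do not reach those of WT TAMs.

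Of the 9 receptors, 4 lie in the CC receptor cluster of chromosome 9. From the start of Cxcr6, Ccr1 starts at 156 kb, Ccr3 at 215 kb and Ccr2 at 295 kb. The log2 fold changes of these 4 did not run in one direction. They were 0.56 for Cxcr6 and 0.33 for Ccr1, then -1.47 for Ccr3 and -0.28 for Ccr2. Ccr1l1, between Ccr1 and Ccr3, did not pass the filter and averaged 0.844 ± 0.279 CPM (WT) and 0.244 ± 0.0629 CPM (miR-21-/-). Xcr1, a marker of cross-presenting dendritic cells, lies between Cxcr6 and Ccr1. It was at 3.04, 1.73, 2.33 and 7.05 CPM in WT samples 1 to 4 and at 3.32, 4.35, 10.1 and 20.7 CPM in miR-21-/- samples 1 to 4 (adjusted p = 0.117 by limma). The 8 markers of conventional dendritic cells summed to 17.8 to 24.4 CPM in WT and to 15.6 to 40.7 CPM in miR-21-/- TAMs. In log2 fold change 2 of the 8, with Xcr1 among them, were higher and 6 lower. Only Dpp4 passed the threshold, with lower values (-1.04, adjusted p = 0.000467 by limma), against 7.12% of all tested genes. At an adjusted p at or under 0.05, 1 of the 8 was higher and 2 were lower, against 36.0% in either direction. Within a library, Ccr1 was 18.3 to 31.3 times Ccr3 in the WT and 67.3 to 144 times Ccr3 in the miR-21-/- samples, in CPM.

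**Figure D4:**
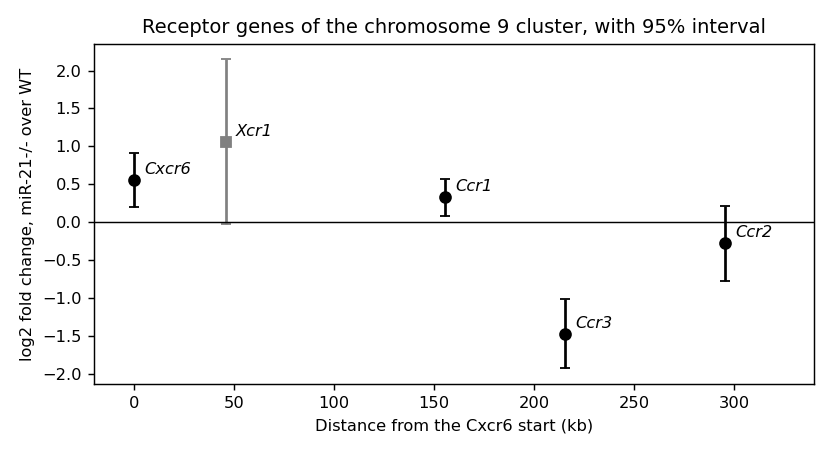
Log2 fold change, miR-21-/- over WT, on log2(CPM + 1) (y axis), of the tested receptor genes in the chromosome 9 cluster, by the distance of their start from that of Cxcr6 in kb (x axis), with the 95% confidence interval from limma (bar). Circles are the receptors examined here and the square is Xcr1. Ccr3 is below 0 and its neighbor Ccr1 above 0.

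Ligand genes of these receptors were higher in miR-21-/- TAMs where they changed. All 20 listed ligands were in the table, 15 passed the filter, and 8 of the 15 rose past the threshold, against 2.89% of all tested genes. None of the 15 passed with lower values. Their median log2 fold change was 0.91, against -0.10 over all tested genes. The list was chosen with earlier results of these data known and is not independent evidence of its direction.

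The ligands of Ccr1 that rose were Ccl5, Ccl6 and Ccl9. Ccl6 averaged 806 ± 254 CPM (WT) and 2146 ± 308 CPM (miR-21-/-), with a difference in log2 of 1.46 (SE 0.21, adjusted p = 0.000685 by limma). Ccl9 averaged 453 ± 112 and 854 ± 179 CPM, with a difference in log2 of 0.92 (adjusted p = 0.00481). Ccl5, a chemokine also made by T cells, averaged 3.52 ± 0.478 and 12.9 ± 6.90 CPM, with a difference in log2 of 1.51 (adjusted p = 0.00207), and was highest in miR-21-/- sample 1, at 23.0 CPM. Ccl4, a chemokine close to Ccl3, rose by 0.91 on the log2 scale (adjusted p = 0.000663), while Ccl3 did not pass the threshold (0.36, adjusted p = 0.0680). Ccl5, Ccl9 and Cxcl11 were the less stable calls. With each of the 8 samples left out in turn, Ccl9 missed the threshold 6 times (WT 2, 3 and 4, miR-21-/- 1, 2 and 3), Ccl5 5 times (each WT sample and miR-21-/- 2) and Cxcl11 once (miR-21-/- 2). Without miR-21-/- replicate 2, 5 of the ligands passed. Ccl9 also missed it after quantile normalization and without the trend in eBayes.

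The ligands of Ccr2 that were tested did not pass the threshold. The log2 fold change was 0.42 for Ccl2 (adjusted p = 0.218 by limma), 0.86 for Ccl7 (adjusted p = 0.0308) and 0.79 for Ccl12 (adjusted p = 0.0414). Ccl8, of the monocyte chemoattractant protein family, had the largest ligand increase. It was at 74.5, 56.5, 110 and 36.9 CPM in WT samples 1 to 4 and at 445, 482, 345 and 278 CPM in miR-21-/- samples 1 to 4, without overlap. Its log2 fold change was 2.54 (SE 0.29, 95% interval 1.89 to 3.18, adjusted p = 0.000220 by limma).

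The 3 ligands of Cxcr3 rose, while Cxcr3 itself averaged 2.02 ± 0.484 CPM (WT) and 1.10 ± 0.482 CPM (miR-21-/-). The log2 fold change was 2.17 for Cxcl9, 2.33 for Cxcl10 and 1.33 for Cxcl11, whose level was the lowest of the 3, at 0.631 ± 0.368 and 3.16 ± 1.21 CPM (adjusted p = 0.00124 by limma). Cxcl11 was tested only through the miR-21-/- samples, since its WT mean was under the filter, and it missed the threshold with a pseudocount of 10, a filter of 5 and no filter. Cxcl12, the ligand of Cxcr4 and Ackr3, did not pass the filter and was at 0.139 to 0.876 CPM in WT and 0.0374 to 0.570 CPM in miR-21-/- samples. Cxcl16, the membrane-bound ligand of Cxcr6, was at 248 ± 16.1 and 285 ± 37.6 CPM (log2 fold change 0.19, adjusted p = 0.119). Of the eotaxin ligands of Ccr3, Ccl11 did not pass the filter. The log2 fold change of the eotaxin Ccl24 on log2(CPM + 1) was 0.17 (adjusted p = 0.769), with means of 2.51 ± 2.74 and 2.40 ± 1.04 CPM. Of the Ccr7 ligands, Ccl19 was at 0.0001 CPM in all samples and Ccl21a was under 3 reads in each. Rarres2, which encodes chemerin, was at 0.897 ± 0.617 and 0.457 ± 0.242 CPM and did not pass the filter.

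**Figure D5:**
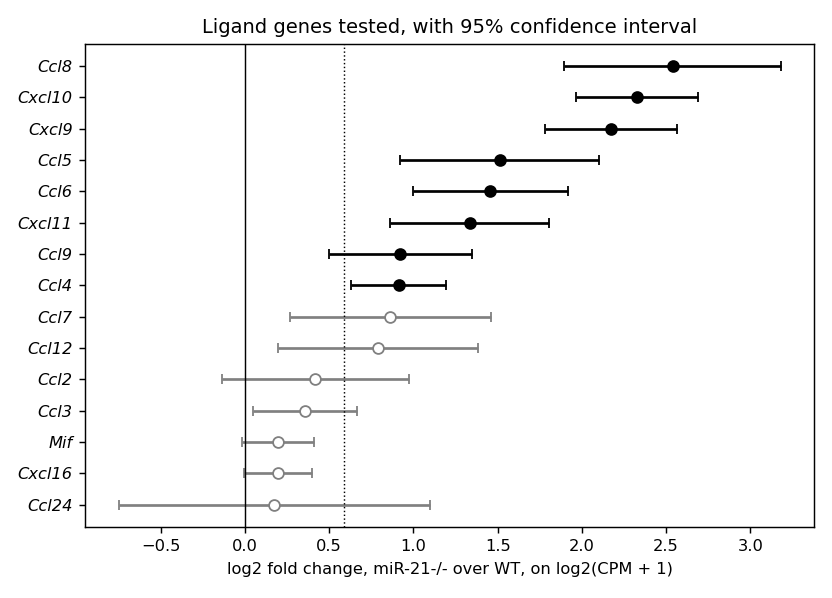
Log2 fold change, miR-21-/- over WT, on log2(CPM + 1) (x axis), of the 15 ligand genes tested, with the 95% confidence interval from limma (bar). Filled points are the 8 that passed the threshold, and the dotted line marks an increase of 1.5-fold. All 15 points lie above 0, from 0.17 for Ccl24 to 2.54 for Ccl8.

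Among 21 other chemokine and chemoattractant receptors, 12 passed the filter and 3 passed the threshold, against 7.12% of all tested genes. Cx3cr1, the fractalkine receptor of patrolling monocytes and resident macrophages, fell from 40.5, 77.3, 46.8 and 26.6 CPM in WT samples 1 to 4 to 3.47, 2.37, 1.96 and 2.98 CPM in miR-21-/- samples 1 to 4. Its log2 fold change was -3.64, a larger decrease than that of Ccr3 or Cxcr4. Ltb4r1, the high-affinity receptor of leukotriene B4, rose by 1.57 on the log2 scale (SE 0.13, adjusted p = 2.99e-05 by limma), from 20.9 ± 4.18 to 63.4 ± 7.12 CPM. Fpr2, a formyl peptide receptor, rose by 0.61 (SE 0.11, adjusted p = 0.00198), from 84.1 ± 14.3 to 128 ± 8.93 CPM. Fpr2 missed the threshold in 6 of the 8 fits with a sample left out (WT 1, 2 and 3, miR-21-/- 1, 2 and 4). Cxcr2, a receptor of neutrophils, was at 64.1 ± 10.5 and 49.3 ± 5.53 CPM (log2 fold change -0.36, adjusted p = 0.0335), and the 8 neutrophil markers summed to 1000 to 2126 CPM in WT and to 724 to 1065 CPM in miR-21-/- TAMs. The highest of them by its mean was Mmp9, which ranged from 166 to 1158 CPM within WT. Of the 7 neutrophil markers tested, none passed the threshold and 4 had lower values in miR-21-/- TAMs at an adjusted p at or under 0.05, against 26.5% of all tested genes. The part of neutrophils in Cxcr2 was not tested. The log2 fold changes of C3ar1, Cmklr1 and Fpr1 lay between -0.040 and -0.0091.

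Genes of receptor signaling and desensitization include inhibitory G protein subunits, arrestins, receptor kinases, RGS proteins that switch off G proteins, and the PI3K-γ and Rac pathway. Of 39 tested, 2 passed the threshold, both lower, against 7.12% of all tested genes, and 15 had an adjusted p at or under 0.05, against 36.0%. Rgs2 fell from 159, 152, 165 and 202 CPM in WT samples 1 to 4 to 80.6, 58.0, 82.7 and 85.8 CPM in miR-21-/- samples 1 to 4 (log2 fold change -1.14, SE 0.13, adjusted p = 0.000193 by limma). Rgs18 fell to 0.641 ± 0.248 CPM from 3.78 ± 1.62 CPM in WT (log2 fold change -1.49, adjusted p = 0.00106). Its miR-21-/- mean was under the filter, so Rgs18 was tested only through the WT samples, where it is high. Of the 15, 14 had lower values in miR-21-/- TAMs, or 14 of 39 against 26.5% of all tested genes, and 1 had higher values, against 9.49%. Among those lower were the arrestin Arrb2 (-0.27, adjusted p = 0.00412), the receptor kinase Grk3 (-0.78, adjusted p = 0.00832) and Pik3cg (-0.43, adjusted p = 0.00351). Gng2 had higher values (0.40, adjusted p = 0.00177). The G protein subunit Gnai2 was at 744 ± 36.9 and 699 ± 8.96 CPM (log2 fold change -0.089, adjusted p = 0.261), and the median of the 39 was -0.10, as was that of all tested genes. After the median of ratios, 11 of the 39 had an adjusted p at or under 0.05, 7 with lower and 4 with higher values, and Arrb2 was no longer among them. After quantile normalization the number was 16, 14 of them lower.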

How the data were processed

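RNA-Seq of sorted TAMs from 4 WT and 4 miR-21-/- samples was used. The authors deposited CPM values per gene, each raised by 0.0001, made with Partek 7.0, and the submitters' processing notes also name STAR and mm10. The counting rule and its use of strand are not given in the sources used here. Between 78.7% and 79.8% of low values were whole reads within 0.1 read, so counts were not recovered and no count test was run. All 37 mitochondrial rows were at 0.0001. Precision is limited by 4 samples per genotype and, for low receptors, by their reads.

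Log2(CPM + 1) of the deposited values was fitted with limma 3.58.1 (lmFit, eBayes with trend) in R 4.3.3 over 13850 genes, with Benjamini-Hochberg adjustment over all of them. Fold changes on this scale understate the change of low genes. The filter was a mean over the 8 samples of 1 or more per 1e+06 of each total. The fit was tested on simulated data. The permutation test planned for neighbors in the order of levels treats genes of the same libraries as separate samples, so its p-values are not given. Gene positions, exons and 3′ UTRs came from GENCODE vM21 (GRCm38), in which 97.1% of matched symbols have the start given in the table, and promoters and the microRNA from RefSeq. All receptors were named, as were the genes past the threshold in lists other than marker lists and the highest marker of a list. Further genes named were chosen after their values were seen. The members, lists and motifs were chosen with earlier results of these data known. Alternatives were pseudocounts of 0.1 and 10, no filter or a filter of 5, median of ratios, quantile normalization, eBayes without trend, a replicate block, each sample left out, and an adjusted p of 0.05 without a fold limit.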

Additional observations from a re-analysis of the deposited data

How the results depend on the processing

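Across 140 refits of the 9 receptors, 133 kept the direction and the side of the threshold. Cxcr4 passed in all 16 of its refits and Ccr3 in 15 of 16, the exception being the absence of a filter on low values (adjusted p = 0.00572). Ccr7 turned positive 5 times, at 0.053 after the median of ratios, 0.15 after quantile normalization, 0.16 without WT replicate 3, and 0.028 and 0.052 without miR-21-/- replicates 3 and 4. Leaving out 1 sample moved it between -0.15 and 0.16. Ccrl2 passed only without WT replicate 4.

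With no filter, 1 receptor, 3 ligands, 1 signaling gene and 515 of all genes passed, and the cause was not tested. With a pseudocount of 10, 5 ligands, 1 signaling gene and 452 genes passed, and with a filter of 5, 1 signaling gene, since Rgs18 was not tested. At an adjusted p of 0.05 without a fold limit, the numbers were 6 receptors, 5 other receptors, 15 signaling genes and 4982 genes, and the receptors were 3 to 5 with 1 sample left out and 3 with no filter, a count added after the data were seen. With 1 sample left out, the numbers lay between 2 and 3 receptors, 5 and 8 ligands, 2 and 3 other receptors, 2 and 3 signaling genes, and 685 and 1001 genes, and the order of levels kept all 9 places in WT and 6 to 9 in miR-21-/- TAMs. Among the calls of the ligand, other receptor and signaling lists, Ccl5, Ccl9 and Fpr2 were lost in most of these refits.

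With the replicate number as a block, 2 receptors, 8 ligands, 3 other receptors, 3 signaling genes and 922 genes passed. The replicate numbers of the miR-21-/- samples were given here in sample order, and the titles of these samples do not carry the same numbers. The block therefore does not stand for a known pairing. Same-numbered samples correlated at -0.14 to 0.22 in their deviations from the group means, which cannot tell whether samples were paired. Ccr7, Cxcr3, Cxcr6 and Ackr3 have no value under a filter of 5. No receptor was below the main filter, so the permutation test planned for that case had nothing to test. Receptors of 20 to 112 reads carry most counting error.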
